A study of Homo sapiens with 20 samples.

Results

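The wound-activated keratins are the 5 genes KRT6A, KRT6B, KRT6C, KRT16 and KRT17, chosen by name from the 57500 genes listed in each of 20 RNA-seq libraries of human keratinocytes. KRT6B rose the most of the 5 after wounding of wild-type cells, by 12.9-fold. All 5 were already higher in unwounded cells lacking GCN2 than in unwounded wild-type cells, by 2.49-fold to 8.56-fold. Of all genes tested, 8.21% were at least 2-fold higher there at an adjusted p of at most 0.05 (edgeR). In the cells lacking GCN2 no member changed by 2-fold upon wounding. Few genes did so in these cells, with 0.475% of all genes tested higher by the same thresholds. All 5 members passed the filter on low counts in every comparison.

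Keratins form the intermediate filaments of epithelial cells as obligate pairs of a type I and a type II protein. Resting basal keratinocytes rely on the type II keratin KRT5 and the type I keratin KRT14. In human skin KRT6A, KRT6B and KRT6C (type II) and KRT16 and KRT17 (type I) are kept low in most of the epidermis between hair follicles, and are switched on in keratinocytes at the edge of a wound, in psoriasis and in other states of activated epidermis. They are known for their part in reshaping the keratin network of migrating keratinocytes, and KRT17 also for effects on protein synthesis and cell growth.

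RNA was measured in NTERT cells, an immortalized line of human keratinocytes, in 4 groups of 5 libraries. WT cells were labelled wild type, and by the study's account carry a control guide RNA. GCN2KO cells are a pool of CRISPR/Cas9-edited cells and not a clone, made with guides against EIF2AK4, the gene of the eIF2 kinase GCN2, at exon 2 or exon 12, and which pool was sequenced is not given in the sources used here. Either genotype was left unwounded or given a high-density wound (HDW), in which rows of pipet tips were drawn across a monolayer in perpendicular directions. By the study's HDW method the monolayers had been differentiated in calcium and serum for 36 h, while its results text gives a longer time. RNA was taken 6 h after wounding. HDW libraries therefore mix cells at wound edges with cells further away.

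The libraries held 14083504 to 34611570 counts. EIF2AK4 averaged 4355 ± 149 normalized read counts (SD, n = 5) unwounded and 4194 ± 129 after HDW in WT libraries. In GCN2KO libraries it averaged 894 ± 61.8 and 874 ± 66.5, with no overlap between the genotypes. Normalized read counts are counts divided by the TMM-scaled library size relative to its mean over the 20 libraries. All 10 keratinocyte markers fixed for the check reached 1 CPM in every group, with summed levels of 19400 to 25270 CPM. Summed levels of 7 fibroblast markers stayed within 23.3 to 36.3 CPM, of 4 endothelial markers at or under 1.31 CPM and of 4 melanocyte markers at or under 3.49 CPM. The 4 immune markers summed to 56.1 to 65.1 CPM unwounded and 31.3 to 36.6 CPM after HDW in WT, and to 24.4 to 44.6 CPM and 16.7 to 36.7 CPM in GCN2KO libraries, and the pan-leukocyte marker PTPRC was at 0 in 3 of the 4 groups. Their part in the results was not tested. Along the first principal component of all genes, GCN2KO unwounded replicate 1 (39.8) and GCN2KO HDW replicate 5 (38.7) lay apart from the other GCN2KO libraries (53.3 to 59.6), toward the WT side (-63.5 to -38.9). Values without either library are given beside the results that rest on them.

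The type II members lie side by side on the minus strand of chromosome 12 in GRCh38, KRT6A (ENSG00000205420) at chr12:52487176-52493257, KRT6B (ENSG00000185479) at chr12:52446651-52452146 and KRT6C (ENSG00000170465) at chr12:52468516-52473805. The type I members are neighbours on the minus strand of chromosome 17, KRT16 (ENSG00000186832) at chr17:41609778-41615899 and KRT17 (ENSG00000128422) at chr17:41619442-41624842. All 5 are protein coding. KRT6A and KRT6C transcripts shared 95.6% of their aligned bases, KRT6B and KRT6C 92.9%, KRT6A and KRT6B 91.8%, and KRT16 and KRT17 79.3%. Of the 100-base windows of each transcript, 18.2% in KRT6A, 24.4% in KRT6B, 31.4% in KRT6C, 7.12% in KRT16 and 0.353% in KRT17 occur without mismatch in a transcript of another gene. Since uniquely mapped reads alone were counted, levels of the KRT6 genes can be too low. The windows are shorter than the study's reads, so these shares do not measure how many reads were lost. The sum of the 3 is given beside them, and it does not bring back reads that were left uncounted.

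Per transcript length, KRT17 and KRT6A were among the most abundant transcripts of these cells, and the other members spanned a wide range below them. In WT unwounded cells KRT17 averaged 2552 FPKM and ranked 11 of 56410 genes by level, and KRT6A averaged 1028 FPKM at rank 58. KRT16 averaged 105 FPKM at rank 535, KRT6B 15.2 FPKM at rank 3878 and KRT6C 4.21 FPKM at rank 8351. This order, KRT17, KRT6A, KRT16, KRT6B and KRT6C, held in both GCN2KO groups, while in WT HDW cells KRT6B (165 to 220 FPKM) stood above KRT16 (121 to 150 FPKM). No neighbours in the order overlapped in any of the 4 groups. KRT17 ranked 3 in WT HDW cells and 1 in both GCN2KO groups, where it averaged 8573 FPKM unwounded and 7624 FPKM after HDW. KRT6A ranked 16 after HDW of WT cells, and 11 and 5 in GCN2KO cells without and with HDW. For comparison, the constitutive keratin KRT5 averaged 3634 FPKM unwounded and 4240 after HDW in WT, and 5117 and 6058 in GCN2KO cells, while its partner KRT14 averaged 1346 and 1556 FPKM in WT and 747 and 910 in GCN2KO cells.

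**Figure D1:**
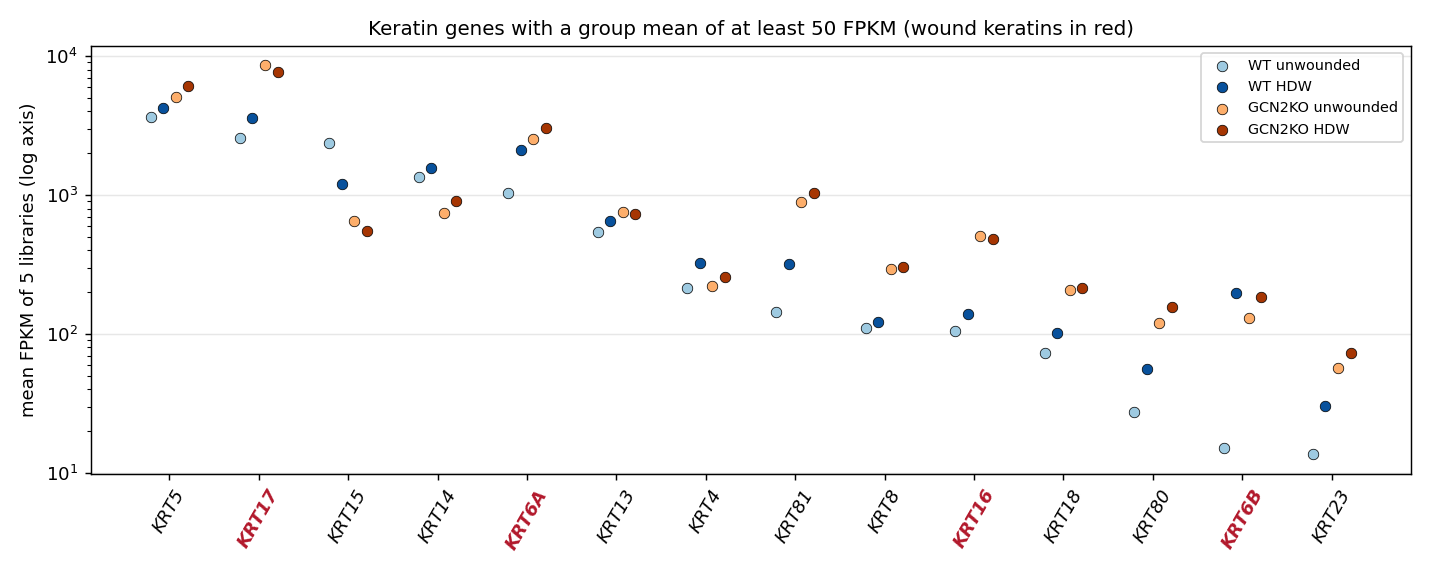
Mean FPKM (5 libraries per point, log axis) of the 14 keratin genes that reached 50 FPKM in at least 1 group, ordered by their level in WT unwounded cells. KRT17 was the highest in both GCN2KO groups, KRT6B rose from 15.2 to 196 FPKM with HDW in WT cells, and KRT6C stayed under 50 FPKM and is not drawn.

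The first comparison asked how the wound keratins responded to HDW in WT cells, and all 3 type II members rose by more than 2-fold while both type I members rose by less. KRT6A had 64905, 71642, 66778, 71706 and 66160 normalized read counts in the 5 WT unwounded libraries. After HDW it had 137795, 133104, 138445, 142384 and 144953. Each HDW library thus lay above every unwounded one, at a log2 fold change of 1.03 (edgeR SE 0.040, adjusted p = 4.93e-11). This value sits at the threshold of 1 that the study set for a DE gene, together with an adjusted p of at most 0.05, and fell to 0.99 when libraries were scaled by size alone.

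KRT6B was the member with the largest response. It had 1014, 1112, 886, 1044 and 981 normalized read counts in WT unwounded and 13071, 10947, 12324, 14577 and 14084 in WT HDW libraries. Its log2 fold change of 3.69 (edgeR SE 0.079, adjusted p = 2.39e-13) was the 7th largest rise among 15348 genes tested. KRT6C, the least abundant member, had 266 to 300 in WT unwounded and 576 to 678 in WT HDW libraries (log2 fold change of 1.21, edgeR SE 0.058, adjusted p = 4.60e-10). Summed as a single gene, the KRT6 counts rose by 1.14 (edgeR SE 0.041, adjusted p = 2.60e-11).

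The type I members moved less in WT cells. KRT16 had 5560, 4493, 5184, 4738 and 5040.1 normalized read counts unwounded and 6713, 5787, 6399, 6954 and 7159 after HDW. The groups did not overlap, with a log2 fold change of 0.40 (edgeR SE 0.062, adjusted p = 6.57e-05). KRT17 had 113599, 116407, 106779, 112452 and 107337 unwounded and 146332, 168736, 166508, 150210 and 156335 after HDW. It rose by 0.50 on the log2 scale (edgeR SE 0.046, adjusted p = 3.62e-07), again with no overlap.

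In all, 3 of the 5 members were higher DE genes upon HDW in WT cells, beside 2.62% of all genes tested. KRT6C is counted as a member of its own here and below, though how many of its counts came from KRT6A reads was not tested. All 5 passed the adjusted p alone, beside 26.1% of all genes, and all 5 had groups that did not overlap, beside 19.2%. The median log2 fold change was 1.03 over the members and -0.002 over all genes. In these bulk libraries, more cells expressing a keratin and more RNA per cell cannot be told apart, here and in every comparison that follows. By the study's account the libraries of a group are biological replicates from replicate platings of one cell line, so p-values measure the spread between these platings. No p-value covers the spread between separately edited pools. In the genotype comparisons and the interaction, loss of GCN2 and other differences between the cell populations cannot be told apart.

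**Figure D2:**
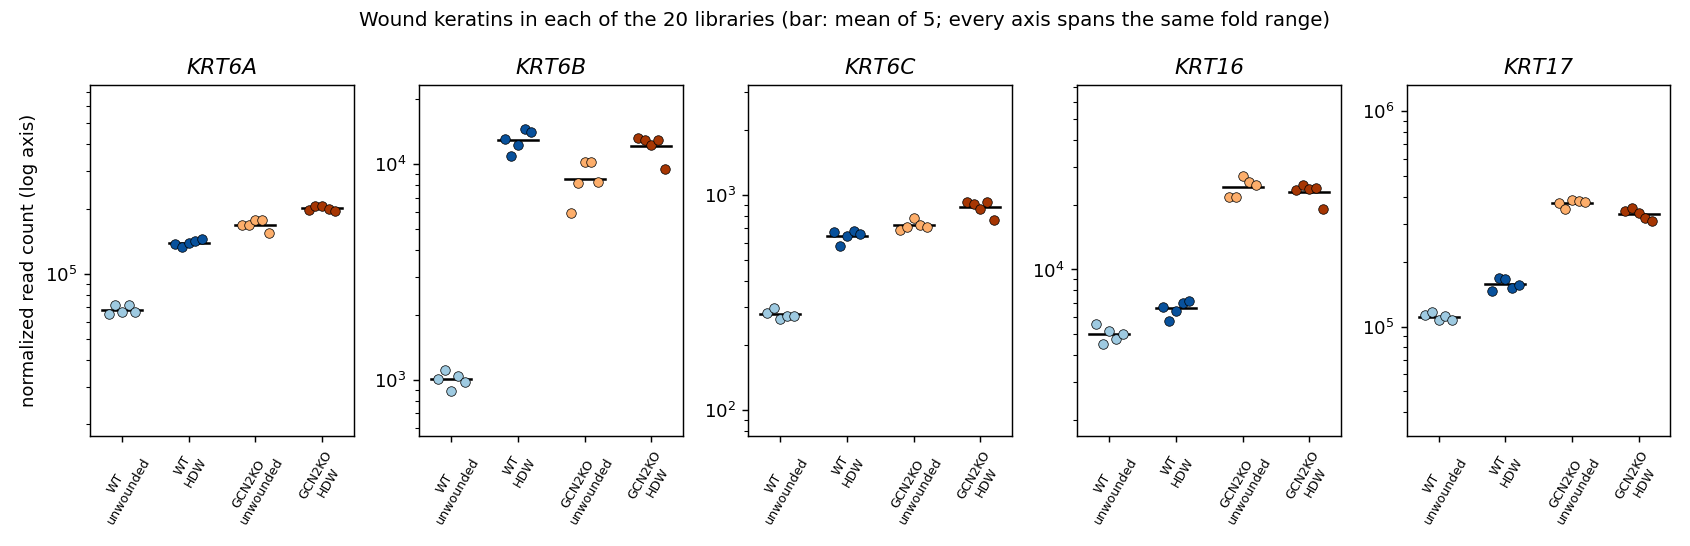
Normalized read counts (log axis, each axis spanning the same fold range) of the 5 members in each of the 20 libraries, with the group mean as a bar. KRT6B spans the widest range, from a mean of 1007 without to 13000 with HDW in WT cells, and the GCN2KO libraries of KRT16 and KRT17 lie above all WT libraries.

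HDW of GCN2KO cells was accompanied by small rises of the type II members, and neither type I member passed the test. KRT6A had 168096, 168652, 177466, 177389 and 154109 normalized read counts in GCN2KO unwounded libraries. In GCN2KO HDW libraries it had 197430, 205812, 205632, 200490 and 196296. The groups did not overlap, and KRT6A rose by 0.26 (edgeR SE 0.067, adjusted p = 0.0149).

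KRT6B varied more between GCN2KO libraries. It had 5978, 8169, 10260.1, 10224 and 8315 normalized read counts unwounded and 13296, 12923, 12240.1, 12977 and 9523 after HDW. The lowest HDW library, replicate 5, lay within the unwounded range, and the rise was 0.52 (edgeR SE 0.13, adjusted p = 0.0149). Without GCN2KO HDW replicate 5 it was 0.59 (edgeR adjusted p = 0.00617), and without GCN2KO unwounded replicate 1 it was 0.41 (edgeR adjusted p = 0.0223). KRT6C rose by 0.29 (edgeR SE 0.070, adjusted p = 0.0109) and the KRT6 sum by 0.27 (edgeR SE 0.067, adjusted p = 0.0126).

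KRT16 had 21678, 21690, 27126, 25333 and 24726 normalized read counts in GCN2KO unwounded and 23285, 24774, 23682, 23991 and 19018 in GCN2KO HDW libraries. These overlapped, with a log2 difference of -0.06 (95% interval -0.23 to 0.11, edgeR adjusted p = 0.636), and without GCN2KO HDW replicate 5, the lowest library, the difference was -0.001. KRT17 had 373591, 349310, 386187, 380439 and 379792 unwounded and 343701, 354000, 335008, 320221 and 309577 after HDW. The log2 difference was -0.16 (95% interval -0.29 to -0.02, edgeR adjusted p = 0.105), with 4 of 5 HDW libraries below all unwounded ones, and the same difference passed the test in DESeq2 (-0.17, adjusted p = 0.0115) and in an edgeR fit of all 20 libraries (-0.17, adjusted p = 0.0299).

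None of the 5 members was a DE gene upon HDW in GCN2KO cells by edgeR or by DESeq2 (4 had an unadjusted p under 0.05), where 0.475% of all genes were higher DE genes. By the adjusted p alone 3 of 5 rose, beside 11.9% of all genes, and 1 of 5 had higher groups that did not overlap, beside 7.52%. The median log2 fold change of the members was 0.26, and that of all genes -0.001.

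The comparison of GCN2KO with WT cells before any wounding showed the broadest change of the set, with every member higher in GCN2KO cells. KRT6B was higher by 3.10 on the log2 scale (edgeR SE 0.13, adjusted p = 1.70e-11), the 100th largest rise among 15348 genes. Among the other type II members, KRT6A was higher by 1.31 (edgeR SE 0.075, adjusted p = 4.10e-10) and KRT6C by 1.37 (edgeR SE 0.070, adjusted p = 1.24e-10). The KRT6 sum was higher by 1.36 (edgeR SE 0.076, adjusted p = 3.08e-10). KRT6C had 683 to 777 normalized read counts in GCN2KO unwounded libraries. Without GCN2KO unwounded replicate 1, KRT6B was higher by 3.20 and KRT6A by 1.31.

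Both type I members were also higher, and by more than the abundant KRT6A. KRT16 was higher by 2.27 (edgeR SE 0.085, adjusted p = 5.95e-12), or 4.83-fold. KRT17, a top-ranked transcript in either genotype, was higher by 1.75 (edgeR SE 0.076, adjusted p = 2.69e-11), or 3.37-fold. All 5 of 5 members were higher DE genes, beside 8.21% of all genes tested, all 5 passed the adjusted p alone, beside 33.4%, and all 5 had groups that did not overlap, beside 26.3%. The median log2 fold change was 1.75 over the members and 0.004 over all genes.

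Wounded cells of the 2 genotypes differed most in the type I members. KRT16 was higher in GCN2KO HDW than in WT HDW cells by 1.80 (edgeR SE 0.074, adjusted p = 2.75e-10) and KRT17 by 1.08 (edgeR SE 0.056, adjusted p = 1.61e-09). KRT6A was higher by 0.53 (edgeR SE 0.041, adjusted p = 6.23e-08) and KRT6C, with 765 to 930 normalized read counts in GCN2KO HDW libraries, by 0.44 (edgeR SE 0.063, adjusted p = 2.26e-05). The KRT6 sum was higher by 0.49 (edgeR SE 0.043, adjusted p = 2.10e-07). KRT6B overlapped between the genotypes, with a log2 difference of -0.09 (95% interval -0.27 to 0.09, edgeR adjusted p = 0.377), and -0.01 without GCN2KO HDW replicate 5. In all, 2 of 5 members were higher DE genes, beside 7.10% of all genes, 4 of 5 passed the adjusted p alone, beside 35.9%, and 4 of 5 had higher groups that did not overlap, beside 27.9%. The median over the members was 0.53 and over all genes 0.002.

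The difference between the wounding responses was tested as the interaction of genotype and HDW over all 20 libraries, where a negative value means a smaller response in GCN2KO cells. It was -3.19 for KRT6B (edgeR SE 0.17, adjusted p = 9.76e-12), the 9th most negative of 16536 genes tested, and without GCN2KO unwounded replicate 1 or GCN2KO HDW replicate 5 it was -3.29 or -3.11. KRT6A had an interaction of -0.78 (edgeR SE 0.077, adjusted p = 1.27e-07), KRT6C of -0.93 (edgeR SE 0.091, adjusted p = 1.03e-07) and the KRT6 sum of -0.87 (edgeR SE 0.079, adjusted p = 4.00e-08). The type I members had interactions of -0.47 for KRT16 (edgeR SE 0.11, adjusted p = 0.00326) and -0.67 for KRT17 (edgeR SE 0.084, adjusted p = 3.54e-06). KRT6B was the lone member past the fold threshold, beside 2.15% of all genes as lower DE genes, and all 5 passed the adjusted p alone in the negative direction, beside 12.5%. With libraries scaled by size alone the genes past the adjusted p were 2477 higher and 1510 lower in place of 1851 and 2075. The 4 pairwise comparisons and the interaction share libraries, so their values for a member are set side by side and not as separate evidence.

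**Figure D3:**
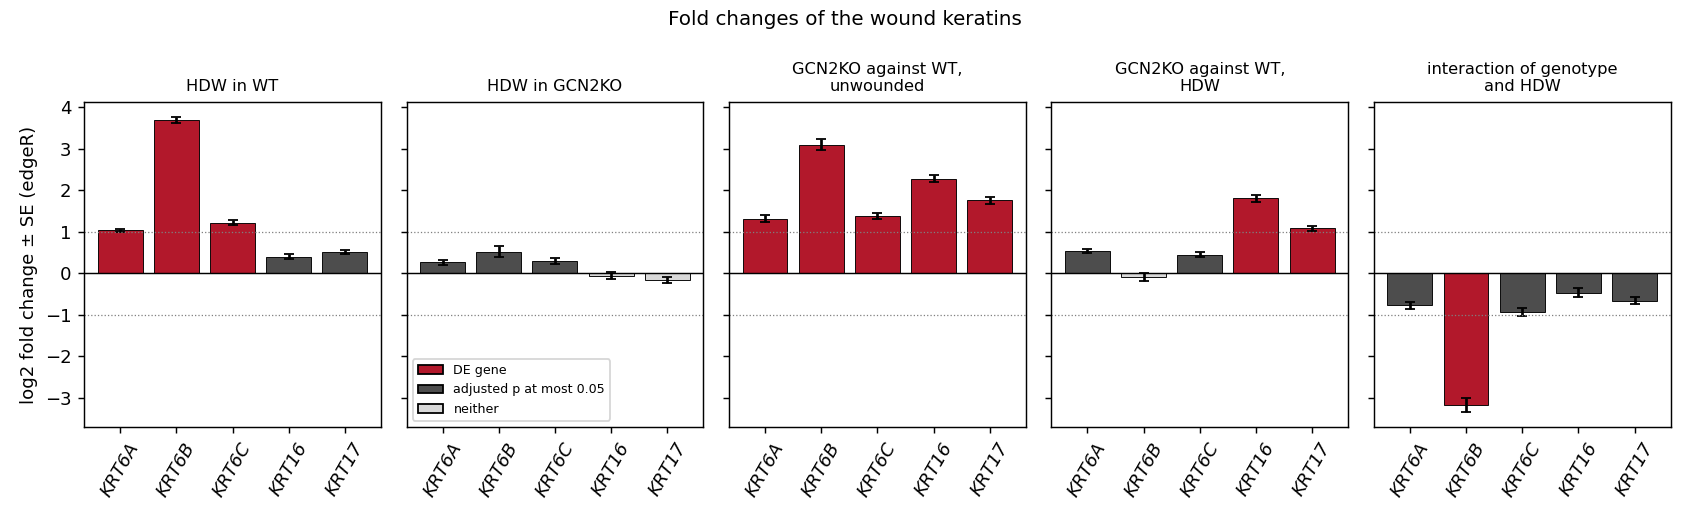
Log2 fold changes of the 5 members with SE bars in the 4 pairwise comparisons and the interaction (n = 5 libraries per group, dotted lines at 1 and -1). Red bars are DE genes, dark grey bars passed the adjusted p alone and light grey bars passed neither, and KRT6B stands out with 3.69 for HDW in WT and -3.19 for the interaction.

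Set beside wounded WT cells, unwounded GCN2KO cells had a higher mean of each member except KRT6B. The mean of GCN2KO unwounded over WT HDW libraries was 1.21 for KRT6A, 1.11 for KRT6C, 2.37 for KRT17 and 3.65 for KRT16. For KRT6B it was 0.661. KRT6C lay close in the groups, at 576 to 678 normalized read counts in WT HDW and 683 to 777 in GCN2KO unwounded libraries. These groups differ in both genotype and wounding, and the ratios are given as a description with no test.

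The make-up of the set also differed between the groups. KRT6B held 1.31% to 1.53% of the KRT6 counts unwounded and 7.57% to 9.25% after HDW in WT libraries, and 3.42% to 5.44% and 4.61% to 6.28% in those of GCN2KO cells. With HDW its share rose from 1.45% ± 0.091 to 8.48% ± 0.646 (SD, n = 5) in WT cells (exact permutation test, two-sided, p = 0.00794, adjusted over 16 tests 0.00977). In GCN2KO cells it was 4.80% ± 0.842 unwounded and 5.69% ± 0.651 after HDW (exact p = 0.0873, adjusted 0.0998). The difference of 0.887 percentage points moved in opposite directions when either of the libraries that lay apart was left out. It was 0.542 without GCN2KO unwounded replicate 1 (exact permutation test, adjusted p = 0.199) and 1.16 without GCN2KO HDW replicate 5 (exact permutation test, adjusted p = 0.0181). The smallest p that 5 samples against 5 can give is 0.00794, and the other differences in KRT6B share, GCN2KO against WT unwounded and after HDW, also reached it, at 3.35 and -2.795 percentage points.

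The balance between the type II and type I members moved as well. Per length, the summed KRT6 genes were 0.395 ± 0.0166 times the sum of KRT16 and KRT17 before and 0.617 ± 0.0516 times after HDW in WT cells, and 0.297 ± 0.0190 and 0.399 ± 0.0159 times in GCN2KO cells (SD, n = 5). All 4 comparisons of this ratio had groups that did not overlap (exact permutation p = 0.00794, adjusted 0.00977 for each). The ratio was higher after HDW in either genotype and lower in GCN2KO than in WT cells in either state. KRT16 made up 3.96% ± 0.381 of KRT16 and KRT17 per length before and 3.71% ± 0.466 after HDW in WT, and 5.56% ± 0.377 and 5.93% ± 0.401 in GCN2KO libraries. GCN2KO cells had the higher share in both states (exact p = 0.00794, adjusted 0.00977 for each), while for HDW the exact permutation p was 0.381 in WT and 0.167 in GCN2KO cells.

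Among all 55 keratin genes in the files, the 5 members held 30.3% ± 1.04 of the summed level per length before and 41.2% ± 1.57 after HDW in WT, and 56.4% ± 1.11 and 52.3% ± 0.982 in GCN2KO libraries (SD, n = 5). The share was higher with HDW in WT cells and lower with HDW in GCN2KO cells, with no overlap in any of the 4 comparisons (exact permutation p = 0.00794, adjusted 0.00977 for each). KRT15, a basal keratin singled out here after its values were seen, averaged 2382 FPKM before and 1209 after HDW in WT cells and 645 in unwounded GCN2KO cells, so the denominator moved too.

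**Figure D4:**
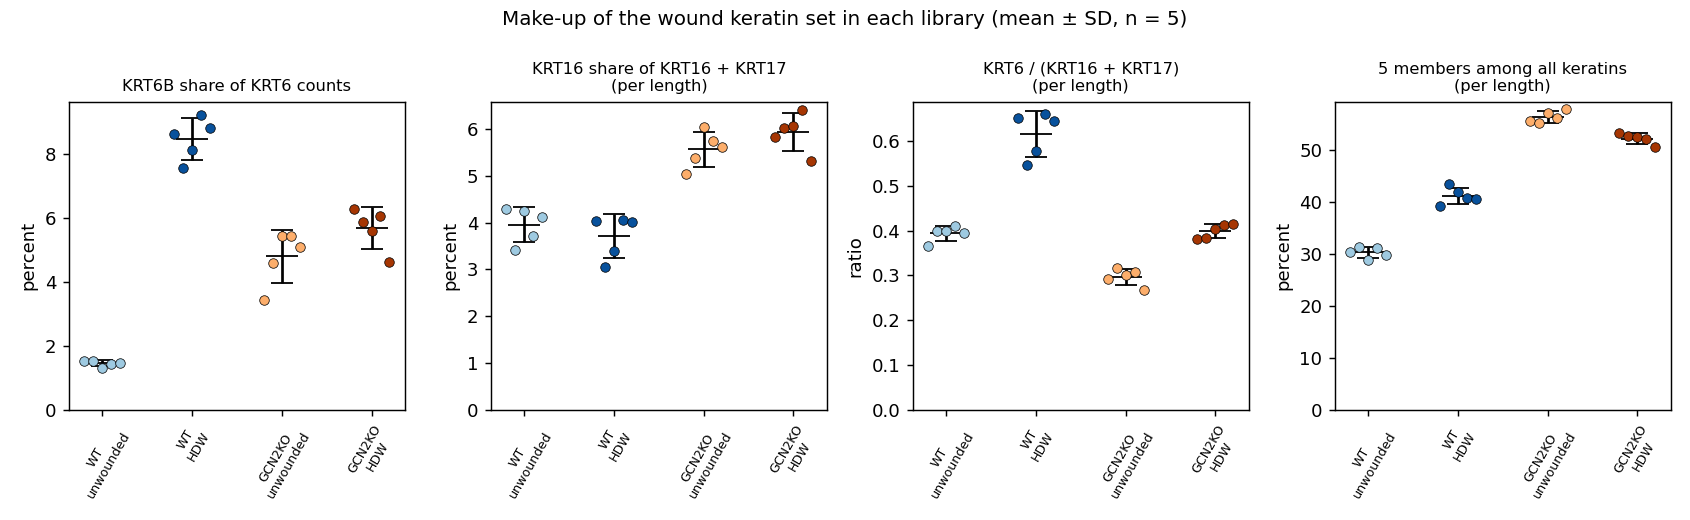
Make-up of the set in each library with mean ± SD (n = 5), in percent or as a ratio, all axes from 0. The KRT6B share was highest in WT HDW libraries (7.57% to 9.25%), the ratio of KRT6 to KRT16 and KRT17 was highest in WT HDW (mean 0.617), and the members' share of all keratins was highest in GCN2KO unwounded libraries (mean 56.4%).

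KRT6C followed KRT6A closely at a small share of its level. Its counts were 0.384% to 0.435% of those of KRT6A before and 0.433% to 0.490% after HDW in WT, and 0.406% to 0.460% and 0.390% to 0.469% in GCN2KO libraries. How many of the KRT6C counts came from KRT6A reads was not tested. KRT6B had the widest spread between libraries of a group, with a coefficient of variation of 20.6% in GCN2KO unwounded and 8.25% to 12.6% in the other groups, against 8.12% to 9.89% for KRT16, 4.57% to 7.86% for KRT6C, 3.73% to 6.24% for KRT17 and 2.22% to 5.64% for KRT6A. In WT unwounded cells KRT6B and KRT16 were alike in spread, at 8.25% and 8.21%.

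Pseudogenes of the type I members were counted separately. Those of KRT17 together held at most 0.0479% of the KRT17 counts. Those of KRT16 held 7.86% to 9.69% of the KRT16 counts before and 4.78% to 6.58% after HDW in WT, and 0.352% to 0.598% and 0.494% to 1.14% in GCN2KO libraries. Most of it came from KRT16P6, with means of 414 and 346 normalized read counts before and after HDW in WT and 77.2 and 141 in GCN2KO cells, while each other KRT16 pseudogene averaged at most 11.9. KRT16P6, at chr17:16818142-16822492 away from KRT16, went the other way from KRT16 between the genotypes. It was lower in GCN2KO than in WT cells by a log2 fold change of -2.40 unwounded (edgeR adjusted p = 1.61e-09) and -1.28 after HDW (edgeR adjusted p = 8.69e-06), and rose by 0.88 with HDW in GCN2KO cells (edgeR adjusted p = 0.00765). Other members of the KRT16 family held at most 17 counts in a library.

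Other keratins moved in the same directions as the set more often than against it. Of 50 other keratin genes, 23 were tested for HDW in WT, where 7 were higher DE genes, and KRT15 was the 1 gene lower by the edgeR adjusted p, short of the fold threshold at -0.98. Their median log2 fold change was 0.37, beside -0.002 over all genes. The largest rises were those of KRT34, a hair keratin, at 2.73, KRT24 at 2.58 and KRT78 at 2.23. The first pair started near the detection floor, with 4.94 ± 4.81 and 6.31 ± 3.20 normalized read counts in WT unwounded cells (SD, n = 5), and KRT78 with 36.3 ± 9.14. KRT81, KRT80 and KRT23, named after their values were seen, averaged 145, 27.4 and 13.7 FPKM in WT unwounded cells. They rose by 1.14, 1.02 and 1.15 with HDW in WT and by 0.25, 0.39 and 0.39 in GCN2KO cells. Unwounded, they were higher in GCN2KO cells by 2.61, 2.14 and 2.06, and their interactions were -0.91, -0.64 and -0.77. The pattern of the members was thus also seen in abundant keratins outside the set. In GCN2KO unwounded cells 11 of 23 were higher and 2 lower DE genes than in WT (median 0.59), with KRT24 higher by 4.50, KRT78 by 3.27 and KRT34 by 2.75. The 2 lower ones, named after their values were seen, were KRT15 at -1.88 and KRT1 at -1.06. After HDW 11 of 27 were higher and 1, KRT15, lower (median 0.62). No other keratin was a DE gene for HDW in GCN2KO cells by edgeR or DESeq2, where 7 of 25 rose and 1, KRT7, fell by the edgeR adjusted p alone (9 at an unadjusted p under 0.05). Over all genes 0.475% were higher DE genes there. For the interaction 3 of 28, KRT24, KRT34 and KRT78, were lower DE genes, at -1.74, -2.25 and -1.28.

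The constitutive pair differed less between the genotypes before wounding than any member did. KRT5 was above its WT level in GCN2KO cells by 0.50 unwounded and 0.52 after HDW, and KRT14 was lower by a log2 difference of -0.85 and -0.77. With HDW, KRT5 rose by 0.22 in WT and 0.25 in GCN2KO cells and KRT14 by 0.21 and 0.30 (edgeR adjusted p at most 0.0439 in each). Neither had an interaction that passed the test (KRT5 0.02, edgeR adjusted p = 0.886, and KRT14 0.08, edgeR adjusted p = 0.660).

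Among 25 regulators known to act on these keratin genes, 23 were tested. With HDW in WT, 2 were higher DE genes, FOSL1, an AP-1 subunit, at 1.58, and the immediate early factor EGR1 at 1.04 (median of the list 0.13), and 10 rose and 8 fell by the adjusted p alone. With HDW in GCN2KO cells 1 was a higher DE gene, FOSL1 at 1.08, while EGR1 rose by 0.95 (edgeR adjusted p = 0.00186). In GCN2KO unwounded cells 1 was higher and 5 lower (median -0.21). Named after their values were seen, these were ATF3, higher by 3.24, and EGR1, NFKB1, RARG, MYC and FOS, at -1.66, -1.39, -1.16, -1.06 and -1.05. After HDW 1 was higher, ATF3 by 2.64, and 2 were lower, EGR1 at -1.77 and RARG at -1.10. No regulator was a DE gene for the interaction by edgeR or DESeq2, where 6 of 23 were higher and 4 lower by the edgeR adjusted p alone (11 at an unadjusted p under 0.05). Over all genes 2.15% were lower DE genes there.

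Of 23 inducing signals and receptors, 21 were tested. With HDW in WT, 4 were higher DE genes, HBEGF at 1.41, EREG at 1.38 and IL1A at 1.15, all ligands of activated keratinocytes, and IL36G at 1.08, named after its value was seen (median 0.18), and 11 rose and 6 fell by the adjusted p alone. None was a DE gene for HDW in GCN2KO cells by edgeR or DESeq2, where 5 rose and 3 fell by the adjusted p alone (12 at an unadjusted p under 0.05). Over all genes 0.475% were higher DE genes there. EREG was level there, with a log2 difference of 0.004 (edgeR adjusted p = 0.972), and its interaction was -1.39 (edgeR adjusted p = 9.11e-08). HBEGF rose by 0.51 and IL1A by 0.38 in GCN2KO cells. In GCN2KO unwounded cells 2 were higher, EREG at 1.25 and IL1RN at 1.07. IL1RN encodes the IL-1 receptor antagonist, so it is in the list without being an inducing signal. There 3 were lower, TNF at -1.52, IL36G at -1.32 and TGFB1 at -1.01 (median of the list -0.17). After HDW 3 were lower, IL36G, TGFB1 and IL1B, at -1.71, -1.22 and -1.19, and for the interaction 2 were lower, EREG and AREG at -1.26, and 1 higher, TNF at 1.11. Those other than EREG, HBEGF and IL1A were named after their values were seen.

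The 16 partners of these keratins, mostly desmosomal plaque proteins and the plakins that anchor keratin filaments, were all tested and held no DE gene for HDW in either genotype or for the interaction, by edgeR or DESeq2 (15, 10 and 5 at an unadjusted p under 0.05). Over all genes 2.62% and 0.475% were higher DE genes for HDW in WT and in GCN2KO cells, and 2.15% lower ones for the interaction. At these shares a list of 16 genes can hold none, so this is no result about the partners. With HDW 9 rose and 4 fell in WT and 6 rose and none fell in GCN2KO cells by the edgeR adjusted p alone. In GCN2KO cells 1 was higher, EPPK1, named after its value was seen, by 1.47 unwounded and 1.61 after HDW. This gene encodes epiplakin, which binds keratin filaments.

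Other genes of activated epidermis, 21 in the list, were partly shared in direction with the set. With HDW in WT 4 of 18 tested were higher, among them SPRR2D at 3.02 and SPRR2A at 2.04, cornified envelope precursors, with PLAUR at 1.43 and PI3 at 1.04 named after their values were seen, and 1 was lower, S100A7A at -2.06 on 22.2 normalized read counts in WT unwounded cells (median of the list 0.12). By the edgeR adjusted p alone 9 rose and 7 fell, and those that fell were S100A7A, SERPINB4 at -0.83, S100A7 at -0.49, S100A8 at -0.29 and S100A9, SERPINB3 and TGM1, at -0.22, -0.34 and -0.34, named after their values were seen. In GCN2KO unwounded cells 8 of 19 were higher (9 by DESeq2) and none lower by either tool (median 0.64), with SPRR2A higher by 5.47 and SPRR2D by 4.92. None of 20 was a DE gene for HDW in GCN2KO cells by edgeR or DESeq2, where 4 rose and 2 fell by the adjusted p alone (11 at an unadjusted p under 0.05). Over all genes 0.475% were higher DE genes there. After HDW 8 of 19 were higher in GCN2KO cells (9 by DESeq2) and none lower by either tool. For the interaction 3 of 20 were lower, SPRR2D at -2.57, SPRR2A at -1.55 and PI3 at -1.01, and 1 was higher, S100A7A at 1.67.

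The genes with the pattern most like each member were found by the root mean square (RMS) difference of centred log2(CPM + 0.5) values over the 20 libraries, as a description with no test. KRT6A and KRT6C were nearer to each other (0.0905) than to any other of 16536 genes compared. Their transcripts share 95.6% of aligned bases, and the part of KRT6A reads in this likeness was not tested. The nearest genes outside the set were MGLL, the monoacylglycerol lipase (0.137), the ERK phosphatase gene DUSP5 (0.149) and ARHGEF2 (0.155) for KRT6A. For KRT6C they were MGLL (0.128), PHLDA1 (0.157) and DUSP5 (0.163). MGLL averaged 258 and 592 normalized read counts before and after HDW in WT and 634 and 833 in GCN2KO cells.

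KRT6B had no near neighbour in this sense. LINC00707, a long noncoding RNA gene (0.535), the acyltransferase gene GPAT3 (0.576) and the replication licensing factor gene CDC6 (0.578) came closest. The spread of KRT6B itself was 1.52. LINC00707 and GPAT3 were near the detection floor in WT unwounded cells, at 7.42 and 7.88 normalized read counts. There the constant added to CPM makes a change smaller in this measure than by edgeR. By edgeR LINC00707 rose by 3.89 with HDW in WT cells, beside 3.69 for KRT6B, and by 1.36 beside 0.52 in GCN2KO cells. The part of the constant in these distances was not tested. CDC6 averaged 56.7 and 368 before and after HDW in WT and 460 and 345 in GCN2KO cells. KRT16 was nearest to the protease gene PRSS27 (0.166), the short-chain dehydrogenase gene SDR16C5 (0.178) and the NKG2D ligand gene RAET1L (0.182). PRSS27 averaged 99.1 and 148 in WT and 498 and 496 in GCN2KO cells. RAET1L averaged 9.7 in WT unwounded cells, so the limit set by the constant holds for it too. KRT17 was nearest to TPBG (0.103), the ER chaperone gene calnexin CANX (0.116) and the enolase gene ENO2 (0.119), with CANX at 36270 and 46830 in WT and 121900 and 113500 normalized read counts in GCN2KO cells. Among the members themselves, KRT16 and KRT17 differed by 0.337 and KRT6A and KRT17 by 0.353, while KRT6B differed from each of the other 4 by 0.947 to 1.22.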

How the data were processed

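Total RNA of 20 NTERT samples, 4 groups of 5 as the labels give them, was sequenced. Per the study's methods the authors trimmed reads with Trimmomatic 0.36, aligned them to GRCh38 with STAR 2.5.2b and assigned the unique alignments to gene exons by featureCounts of Subread 1.5.2. The deposited files hold raw counts for each gene, not normalized. Strandedness and the annotation release are not given in the sources used here. Of the exonic bases of KRT17, 10.2% overlap a gene on the other strand, which is not among the genes counted.

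Of 57500 genes, 56410 were matched to GENCODE release 44 for symbols and lengths, and FPKM used the longest protein-coding transcript. Libraries held 14083504 to 34611570 counts, so every member had at least 142 counts per library. Groups were compared with edgeR 4.0.16 (glmQLFit, glmQLFTest, TMM, filterByExpr with a minimum count of 10 and total of 15) in R 4.3.3, each pair on its own 10 samples and the interaction on all 20, with Benjamini-Hochberg adjustment over all genes tested. DE genes had an adjusted p of at most 0.05 and changed by at least 1 on the log2 scale, the study's thresholds. Intervals are 95% and use the SE. Shares within the set were compared by two-sided exact permutation tests in scipy 1.17.1, adjusted over 16 tests. The fits were tested on simulated data, with calls by adjusted p and direction and no fold threshold. Of 100 changes of 1 log2 unit, 99 were called for HDW in GCN2KO, 100 for HDW in WT and 97 for the interaction. Among unchanged genes 6 to 15 were called per comparison. All genes were simulated with the same spread between libraries. It was below the fitted biological coefficient of variation for HDW in GCN2KO (0.108), GCN2KO against WT unwounded (0.0994) and the interaction (0.0876). Recovery in these comparisons can thus be overstated.

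Replicate numbers are not known to pair the samples, which were treated as unpaired. Deviations of same-numbered samples had mean correlations of -0.0994 to 0.0347 in the 4 comparisons, which cannot show how the samples were processed. Named genes are the members, EIF2AK4, KRT5, KRT14, pseudogenes by range, up to 3 genes per list with the largest fold among DE genes for HDW in WT, and the 3 nearest patterns per member. The members and lists were chosen with earlier results of these data known. Alternatives were DESeq2 1.42.0, other scalings and filters, the replicate block, a joint fit, added paralog or pseudogene counts, other lengths and leaving out each library.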

Additional observations from a re-analysis of the deposited data

Results flagged for a closer look

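The lowest GCN2KO HDW library of KRT6B (9523 normalized read counts) and that of KRT16 (19018) each lay far below the other 4 of their group, by Dixon's criterion for 5 samples. Both are replicate 5, which also lay apart along the first principal component. Chance flags about 1 in 20 groups, and 20 groups were examined.

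All 5 members responded differently to HDW in the 2 genotypes by the interaction term, -0.78 for KRT6A, -3.19 for KRT6B, -0.93 for KRT6C, -0.47 for KRT16 and -0.67 for KRT17 on the log2 scale (edgeR adjusted p = 0.00326 or less). KRT16 and KRT17 rose in WT cells, by 0.40 and 0.50, and did not pass the test in GCN2KO cells.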

How the results depend on the processing

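All 360 log2 fold changes of the members and of the KRT6 sum with 1 library left out kept their direction and their side of both the adjusted p and the fold threshold, as did all but 4 under other settings. One was KRT6A for HDW in WT, 0.99 with libraries scaled by size alone, which left 2 members as DE genes there in place of 3. The others were for HDW in GCN2KO: KRT6A, 0.26 with the replicate block (adjusted p = 0.0543), and KRT17, -0.17 in DESeq2 (adjusted p = 0.0115) and -0.17 with all 20 samples in one fit (adjusted p = 0.0299). The replicate numbers are not known to pair the samples. By the adjusted p alone the members called were 5 and 3 for HDW in WT and in GCN2KO, 4 for GCN2KO against WT after HDW and 5 for the interaction. The KRT6B share for HDW in GCN2KO differed by 0.542 to 1.16 percentage points with 1 library left out, lowest without GCN2KO unwounded replicate 1. A paired exact test of the shares was not run, since 5 pairs cannot go below 0.0625.

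Counts over all genes depended on the filter. With no filter the DE genes lower for HDW in WT were 397, those higher and lower for HDW in GCN2KO were 114 and 85, and those higher in GCN2KO were 2132 unwounded and 1950 after HDW. With a mean of at least 50 counts they were 250 higher and 121 lower for HDW in WT, 37 and 3 for that in GCN2KO, 796 and 834 for GCN2KO against WT unwounded, 563 and 765 after HDW, and 73 and 207 for the interaction. DESeq2 gave 18 lower for HDW in GCN2KO and 1737 higher in GCN2KO after HDW, the joint fit gave 54 lower for HDW in GCN2KO, and leaving out 1 library gave 20 to 59 there, beside 31.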
